A study of Mus musculus with 36 samples.

Results

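The comparison described here is that of the liver at 12 against 10 weeks of age, in males of C57BL/6NCrl, which belongs to the widely used C57BL/6 family of inbred mice. It takes 8 of the 36 libraries of a study of heart, kidney and liver at 8, 10 and 12 weeks, namely the 4 liver libraries labelled 10 weeks and the 4 labelled 12 weeks. All animals were wild type, were fed chow without restriction and received no treatment beyond the anaesthesia at sampling. The time of day of sampling is not given in the sources used here. RNA selected for polyA tails was sequenced as read pairs, and the authors deposited the number of pairs on each gene. Of 78239 genes listed, 14533 with a mean count of at least 10 at 10 or 12 weeks were tested, with the 4 liver libraries of 8 weeks in the same fit. Levels are given as CPM, the pairs on a gene relative to all counted pairs of its library, scaled by the TMM factors of edgeR, which correct for differences in library composition. A positive log2 fold change is a higher level at 12 weeks. The labels number the replicates without naming animals, so the p-values measure the spread between these samples.

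The liver is built mainly of hepatocytes, which make plasma proteins, store glycogen, oxidise fatty acids, synthesise bile acids and modify drugs through cytochrome P450 and conjugating enzymes. Its capillaries, the sinusoids, are lined by a fenestrated endothelium that clears waste molecules from blood. The resident macrophages of the sinusoids are the Kupffer cells, and stellate cells store vitamin A and produce matrix.

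The libraries held 23616091 to 33637390 counted pairs at 10 weeks and 27021294 to 29676013 at 12 weeks. Pairs that could not be mapped made up 6.50% to 13% of a library at 10 weeks and 6.46% to 9.51% at 12 weeks. The hepatocyte markers summed to 88427 to 108236 CPM at 10 weeks and 104489 to 134571 CPM at 12 weeks, so the samples carry the RNA of the labelled tissue. Of 10 muscle markers, 6 were at 0 in all 8 libraries, and the sum of all 10 was at most 1.03 CPM. The kidney markers summed to at most 1.09 CPM, and 0 of 10 passed the filter. The adipocyte markers Adipoq and Lep were at 0 in all 8 libraries.

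A pair of libraries stood apart. At 10 weeks, replicate 2 had 98536 CPM in the genes of the acute phase and complement against 49406 to 54494 in the other 3. Its interferon-stimulated genes summed to 2033 CPM against 953 to 1326, and its neutrophil and monocyte markers to 20.4 against 3.67 to 6.38. The adipocyte markers summed to 64.6 CPM in it, to 10.1 to 12.9 in the other 3 and to 18 to 38.7 at 12 weeks. At 12 weeks, replicate 1 had 1397 CPM in immediate early and growth arrest genes against 593 to 908, and 19.3 CPM in neutrophil and monocyte markers against 1.72 to 4.98. On the first principal component of the 12 liver libraries, which held 20.95% of the variance, this library lay at 39.7, beyond the libraries of 10 weeks at 12.8 to 26.9, and the other 3 of 12 weeks lay at -19.7 to 6.02. Where leaving out 1 library turned the sign of a list's median or moved it by over 1.5 times, the lowest and highest medians over the 8 such cases, or the value without that library, stand beside it. The part of these libraries' states in the results was not tested.

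Few single genes passed the test at 12 against 10 weeks. With edgeR's quasi-likelihood test and Benjamini-Hochberg adjustment over all 14533 genes, 3 genes rose at an adjusted p under 0.05, the threshold for passing, which is 0.0206% of those tested. Another 5 fell, or 0.0344%. An absolute log2 fold change over 1 as well was reached by 1 gene that rose, Cyp2a5, and 3 that fell, Gm44442, Rasgrp3 and Niban1. At an unadjusted p under 0.05, 937 genes (6.45%) were higher and 1136 (7.82%) lower. The count depended on the tool: DESeq2 passed 186 genes as higher (1.28%) and 301 as lower (2.07%), among them all 8 genes of edgeR. With library sizes alone in place of the TMM factors, a setting chosen after the data were seen, edgeR passed 5 as higher and 23 as lower, and the median log2 fold change of all genes was −0.07 in place of 0.01.

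Gys2 had the lowest p of all. It encodes glycogen synthase of the liver, the enzyme that lengthens glycogen chains. The gene, ENSMUSG00000030244, lies on chromosome 6, 142368339 to 142418841 of GRCm39. Its level was 149.9, 188, 160.2 and 176 CPM in the 4 libraries of 10 weeks and 291, 352, 315 and 371 CPM in the 4 of 12 weeks. Every library of 12 weeks lay above every library of 10 weeks, and the ages did not overlap. The mean rose from 168 ± 16.8 to 332 ± 36.2 CPM (SD, n = 4), a log2 fold change of 0.98 (SE 0.10, adjusted p = 0.00311). Gys2 also passed in all 19 alternatives, those without either library that stood apart included, with log2 fold changes of 0.90 to 1.04. At 8 weeks its level had been 316, 286, 317 and 319.5 CPM. The fitted values were −0.88 (adjusted p = 0.00538) at 10 against 8 weeks and 0.10 (adjusted p = 0.675) at 12 against 8 weeks. These comparisons share libraries with that of 12 against 10 weeks, so the low libraries of 10 weeks enter both.

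Cyp2a5 and Fdx1 are the other 2 genes that rose, and both belong to cytochrome P450 chemistry. Cyp2a5, a coumarin hydroxylase of the liver, lies on chromosome 7, 26534730 to 26542973 (ENSMUSG00000005547). It had 226, 296, 267 and 337 CPM at 10 weeks and 592, 569, 846 and 621 CPM at 12 weeks, without overlap. The log2 fold change was 1.22 (SE 0.19, adjusted p = 0.0464). Its coding sequence is close to that of Cyp2a4, which did not pass the filter, so pairs could be lost or split between these paralogs, and it shares 30.9% of its exon bases with Gm71933. Fdx1 encodes ferredoxin 1, which hands electrons to mitochondrial P450 enzymes, and lies on chromosome 9, 51852253 to 51875291 (ENSMUSG00000032051). Its level was 81.8, 74, 94.5 and 86.5 CPM at 10 weeks and 143, 126, 132 and 134 CPM at 12 weeks. All 4 libraries of 12 weeks were above those of 10 weeks, at a log2 fold change of 0.67 (SE 0.09, adjusted p = 0.038). Fdx1 was also above 8 weeks, with −0.14 (adjusted p = 0.525) at 10 against 8 weeks and 0.53 (adjusted p = 0.0346) at 12 against 8 weeks. Leaving out 1 library ended the call of Cyp2a5 in all 8 cases, with adjusted p of 0.058 to 0.12. That of Fdx1 held without replicate 2 or replicate 3 of 10 weeks and was lost in the other 6 cases.

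The 5 genes that fell were expressed at low levels. Rasgrp3, an exchange factor that activates Ras and Rap proteins, lies on chromosome 17, 75742827 to 75836076 (ENSMUSG00000071042). It had 6.54, 8.12, 6.96 and 7.92 CPM at 10 weeks and 3.34, 3.69, 2.3 and 2.59 CPM at 12 weeks. Each library of 12 weeks was below each of 10 weeks, and the log2 fold change was −1.31 (SE 0.19, adjusted p = 0.0418). Niban1, a cytoplasmic protein induced by cell stress, lies on chromosome 1, 151446230 to 151597690 (ENSMUSG00000026483). Its level was 5.37, 6.28, 4.13 and 5.52 CPM at 10 weeks and 2.65, 2.51, 2.89 and 2.59 CPM at 12 weeks, again without overlap, with a log2 fold change of −1.0018 (SE 0.16, adjusted p = 0.0464). Hip1, an adaptor of clathrin and actin in endocytosis, lies on chromosome 5, 135435351 to 135573985 (ENSMUSG00000039959). It went from 6.7, 6.7, 6.15 and 7.43 CPM to 3.65, 3.62, 3.43 and 4.46 CPM, without overlap and with a log2 fold change of −0.83 (SE 0.13, adjusted p = 0.0464).

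Peg3 encodes a zinc finger protein expressed from the paternal allele and lies on chromosome 7, 6706882 to 6733468 (ENSMUSG00000002265). It had 6.38, 6.01, 6.68 and 7.86 CPM at 10 weeks and 3.68, 4.1, 3.54 and 3.55 CPM at 12 weeks. The ages were separate, with a log2 fold change of −0.86 (SE 0.13, adjusted p = 0.0423). At 8 weeks Peg3 was close to its level at 10 weeks, with 7.68, 8.27, 7.02 and 6.69 CPM and fitted values of −0.14 (adjusted p = 0.658) at 10 against 8 weeks and −0.9971 (adjusted p = 0.0109) at 12 against 8 weeks. The last gene is the long noncoding RNA Gm44442 on chromosome 6, 99834091 to 99927938 (ENSMUSG00000107528). It had 0.888, 1.3, 1.01 and 1.14 CPM at 10 weeks and 0.31, 0.258, 0.292 and 0.267 CPM at 12 weeks, a log2 fold change of −1.93 (SE 0.28, adjusted p = 0.0418) without overlap. The calls of these 5 genes were lost in most cases when 1 library was left out. Hip1 passed in 0 of the 8 cases, Niban1 without replicate 3 of 10 weeks, and Peg3, Rasgrp3 and Gm44442 without replicate 2 of 10 weeks.

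**Figure D1:**
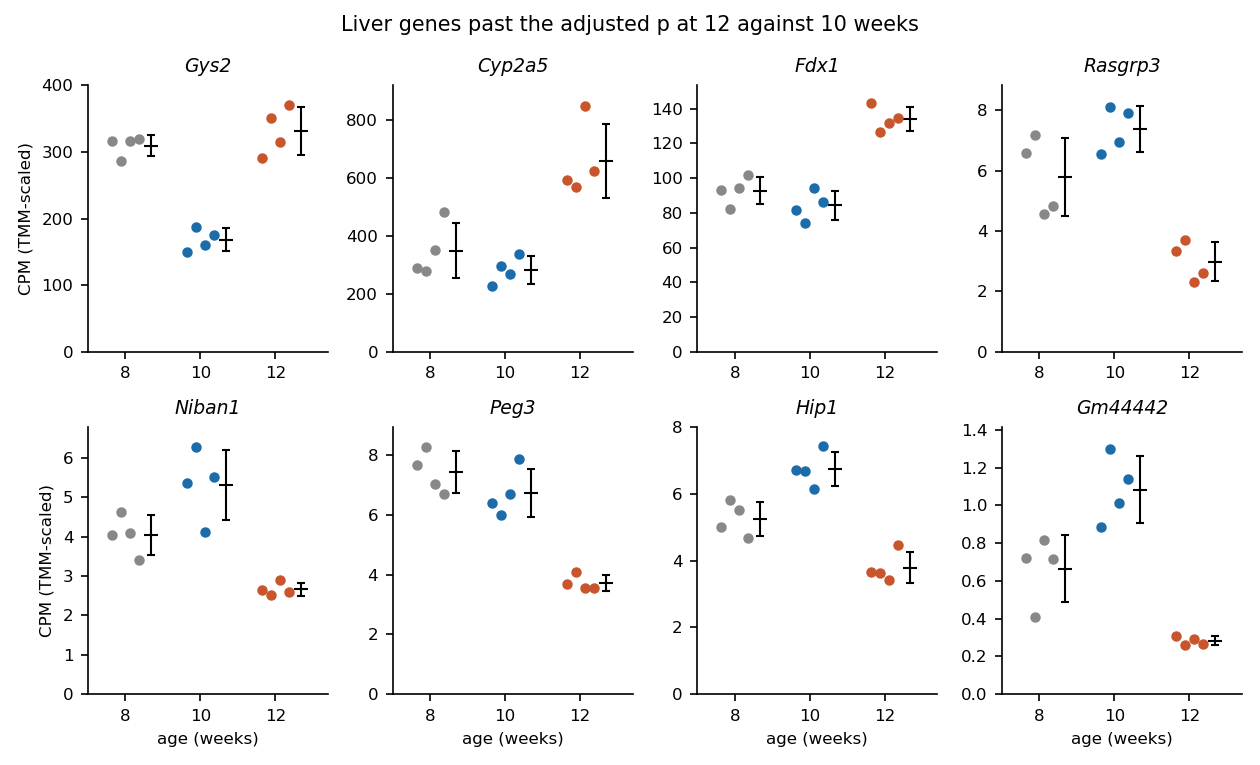
Level of the 8 liver genes past the adjusted p at 12 against 10 weeks, in CPM scaled by TMM factors, by age in weeks. Each point is a library and the bar beside it is the mean with the SD of 4 libraries. In every panel the points of 12 weeks lie wholly above or wholly below those of 10 weeks, and Gys2 at 12 weeks is near its level of 8 weeks.

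The test by gene passes few, but many more genes had ages that did not overlap. In 516 genes (3.55%) all 4 libraries of 12 weeks were above all 4 of 10 weeks, and in 688 (4.73%) all were below. On CPM without TMM factors the same counts were 184 and 1036. The factors were about 1.03 at 10 weeks and 0.976 at 12 weeks, so the split into higher and lower genes moves with the scaling.

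After the genes that passed, the lowest p among genes with lower levels at 12 weeks belonged to many genes of endothelium and macrophages, none of which passed. Fgd5, Gpr182, Pecam1, Tek, Gpihbp1 and Flt4 are known from endothelial cells, and C1qc and Cfp encode complement proteins made by macrophages. Tek, the receptor of the angiopoietins, had 12.1, 12.3, 14.5 and 14.7 CPM at 10 weeks and 6.27, 6.75, 4.82 and 7.66 CPM at 12 weeks. The ages did not overlap, and its log2 fold change was −1.07 (SE 0.18, adjusted p = 0.0573). Flt4, a receptor of vascular endothelial growth factors, had a log2 fold change of −1.07 (SE 0.20, adjusted p = 0.0653), and Gpihbp1, the capillary anchor of lipoprotein lipase, one of −0.75 (SE 0.13, adjusted p = 0.0573). Pik3cd, a lipid kinase subunit of leukocytes, was at −1.12 (SE 0.19, adjusted p = 0.0573). Others in this order were Kctd12 at −0.80, Abca7 at −0.66, Armcx4 at −1.32, Btnl9 at −1.25, Mtcl2 at −1.28 and the kinase Sgk1 at −0.60. In all 15 of these genes with lower levels the ages did not overlap, against 4.73% of all genes. They were chosen by their p in these same libraries, so this count adds no separate evidence.

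Among genes with higher levels at 12 weeks, those next by p included Wee1, Ppp2r2d and Alpl, which did not pass either. Wee1, a kinase that restrains entry into mitosis and is controlled by the clock in liver, is described with the clock genes. Ppp2r2d, a regulatory subunit of protein phosphatase 2A, was at 0.48 (SE 0.09, adjusted p = 0.0721), and Alpl, alkaline phosphatase, at 0.86 (SE 0.17, adjusted p = 0.0721). Several of the rest act in mitochondria, among them the complex I subunit Ndufa10 at 0.35 and Suclg2 of the citric acid cycle at 0.33. Bbox1, the last enzyme of carnitine synthesis, was at 0.38, Eif4a2, a helicase of translation initiation, at 0.38 and Mif, a cytokine, at 0.40.

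The markers of the sinusoidal endothelium were lower at 12 weeks as a list. All 10 members tested had a negative log2 fold change, all 10 had an unadjusted p under 0.05, and in all 10 the ages did not overlap, against 7.82% and 4.73% of all genes. None passed the adjusted p of edgeR or of limma-voom, and 7 passed as lower in DESeq2, against 2.07% of all genes. The median was −0.82, beside 0.01 for all genes. It was −0.77 without replicate 2 of 10 weeks and −0.76 without replicate 1 of 12 weeks. In bulk tissue, fewer cells of a type and less RNA per cell cannot be told apart.

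Kdr, the main receptor of vascular endothelial growth factor, had 58.1, 54, 54.9 and 60.1 CPM at 10 weeks and 21.8, 29.6, 18.3 and 33.6 CPM at 12 weeks. The 4 values of 10 weeks were close together and lay above all of 12 weeks, with a log2 fold change of −1.14 (SE 0.22, adjusted p = 0.0721). Pecam1, an adhesion molecule of endothelial junctions, had 18.9, 27, 21.1 and 18.1 and then 12.9, 11.8, 9.64 and 12.7 CPM, at −0.86 (SE 0.15, adjusted p = 0.0573). The lectin Clec4g had 37, 39.4, 36.8 and 36 and then 17.3, 23.2, 18.3 and 24.4 CPM, at −0.84 (SE 0.18, adjusted p = 0.0733). The scavenger receptors of the sinusoid were at −0.65 for Stab1 and −0.76 for Stab2, and the hyaluronan receptor Lyve1 was at −0.77. Oit3 was at −0.91, the nuclease Dnase1l3 at −0.80, the Fc receptor Fcgr2b at −0.64 and Bmp2, which signals to hepatocytes to induce hepcidin, at −0.85. The summed level of the 10 markers was 365 to 428 CPM at 10 weeks, 188 to 273 CPM at 12 weeks and 252 to 455 CPM at 8 weeks, so the libraries of 8 weeks spanned both.

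Markers of Kupffer cells and macrophages showed the largest difference of the marker lists with 5 or more members tested. All 12 tested were negative. An unadjusted p under 0.05 was reached by 10, and 10 had ages without overlap, against 7.82% and 4.73% of all genes. None passed in edgeR or in limma-voom, and 9 passed in DESeq2, against 2.07% of all genes. The median log2 fold change was −1.02, with −0.84 and −0.93 without replicate 2 of 10 weeks and replicate 1 of 12 weeks. The summed level was 388 to 606 CPM at 10 weeks, 214 to 245 CPM at 12 weeks and 162 to 346 CPM at 8 weeks, where 3 libraries were at 322 to 346.

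Csf1r, the growth factor receptor of macrophages, had 53.2, 65.6, 44.2 and 47.6 CPM at 10 weeks and 22.7, 24.7, 27.8 and 27.8 CPM at 12 weeks. The groups were apart by a wide margin, and the log2 fold change was −1.03 (SE 0.20, adjusted p = 0.0721). Adgre1, the F4/80 antigen, had 18.1, 22.9, 14.2 and 18.2 and then 7.89, 7.12, 7.82 and 9.07 CPM, at −1.20 (SE 0.23, adjusted p = 0.0721). The lectin Clec4f, found on Kupffer cells, had 92.6, 134, 83.6 and 89.5 and then 48.1, 52, 49.5 and 55.9 CPM, at −0.96 (SE 0.22, adjusted p = 0.0759). In all of these the highest library of 10 weeks was replicate 2. The 3 chains of C1q, the recognition part of the complement cascade, had similar values, with −0.94 for C1qa, −0.95 for C1qb and −1.09 for C1qc. Cd5l was at −1.03, the complement receptor Vsig4 at −1.05, the phosphatidylserine receptor Timd4 at −1.0015 and the haemoglobin scavenger Cd163 at −1.09. The exceptions were Marco at −0.48 (SE 0.54) and Cd68 at −0.54 (SE 0.31), whose ages overlapped. The protease Ctss of antigen-presenting cells was at −0.97 (SE 0.20, adjusted p = 0.0721). All 8 genes of MHC class II tested were negative, 3 of them at an unadjusted p under 0.05, against 7.82% of all genes. Their median was −0.35. This median ran from −0.54 without replicate 2 of 12 weeks to −0.18 without replicate 1 of 10 weeks.

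**Figure D2:**
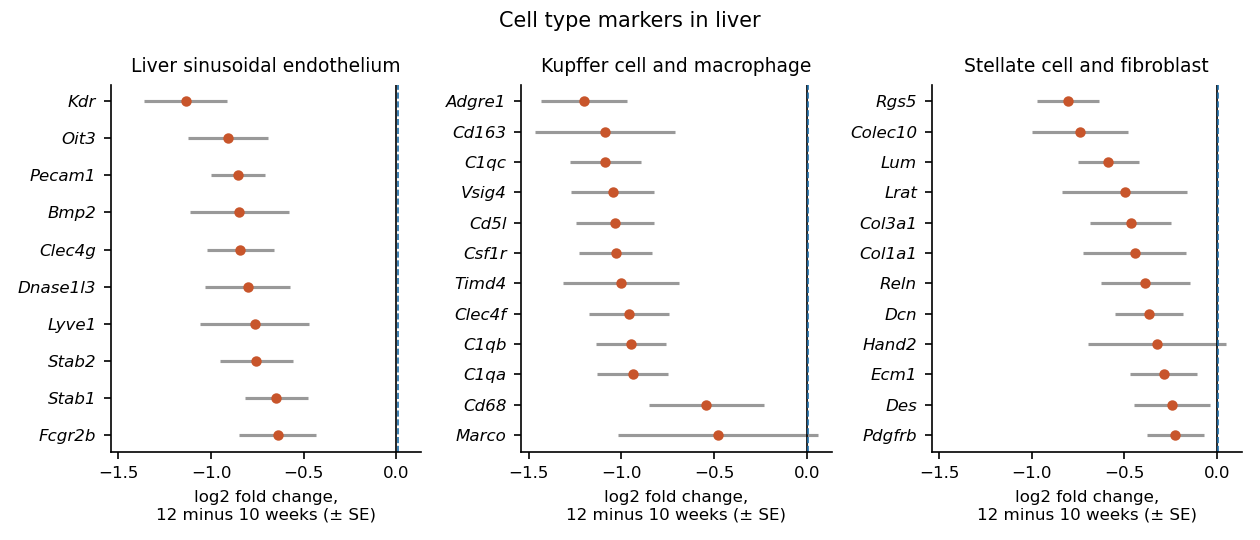
Log2 fold change of each marker at 12 minus 10 weeks in liver, with its SE, for markers of sinusoidal endothelium, Kupffer cells and macrophages, and stellate cells and fibroblasts. The solid line is 0 and the dashed line is the median of all genes tested. All 34 markers lie below 0, from −1.20 for Adgre1 to −0.23 for Pdgfrb.

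The markers of stellate cells and fibroblasts were lower by less. All 12 were negative, with a median of −0.42, and 3 had both an unadjusted p under 0.05 and separate ages, namely Rgs5 at −0.80 (adjusted p = 0.0721), Lum at −0.59 (adjusted p = 0.14) and Colec10 at −0.74 (adjusted p = 0.221). The ages overlapped for Reln at −0.39, Lrat, the enzyme of vitamin A storage, at −0.50, Des at −0.24 and Pdgfrb at −0.23. Genes of the extracellular matrix went the same way. Of 67 tested, 62 were negative, 25 had an unadjusted p under 0.05 and 14 had separate ages, with a median of −0.34. Of all genes, 7.82% were lower at such a p and 4.73% were lower with separate ages. None passed in edgeR or in limma-voom, and 9 passed as lower in DESeq2, against 2.07% of all genes.

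Among matrix genes the basement membrane stood first by p. Col4a2, a chain of collagen IV, had 35, 37.6, 26.9 and 42 CPM at 10 weeks and 25.4, 22, 16.9 and 18 CPM at 12 weeks. The ages were separate, though by little, at −0.78 (SE 0.16, adjusted p = 0.0721). Its partner Col4a1 had 41, 52.8, 37.3 and 46.5 and then 46.6, 24.6, 21.1 and 23.1 CPM, where replicate 1 of 12 weeks lay within the range of 10 weeks, at −0.62 (SE 0.23, adjusted p = 0.242). The laminin chains Lamb2 and Lama4 were at −0.59 and −0.87, and nidogen, Nid1, was at −0.77. Agrin, Agrn, was at −0.34 and Emilin1, a protein of elastic fibres, at −0.86. Of the fibrillar collagens, Col1a1 was at −0.44 and Col3a1 at −0.47, and both overlapped between the ages. The fold changes of the 19 collagens had a median of −0.36 and those of the 16 processing enzymes one of −0.30. Without replicate 1 of 10 weeks that of the collagens was −0.23.

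Genes of fatty acid oxidation and ketone bodies were higher at 12 weeks as a list. Of 35 tested, 34 had a positive log2 fold change, 22 of these at an unadjusted p under 0.05, against 6.45% of all genes. In 11 of the positive members the ages did not overlap, against 3.55% of all genes. The median was 0.27, and 0.17 without replicate 2 of 10 weeks. None passed in edgeR. The lowest adjusted p there, 0.0653, was that of Etfb, the single negative member. In DESeq2, 8 passed as higher and 1 as lower, against 1.28% and 2.07% of all genes, and none passed in limma-voom.

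By role, transport had a median of 0.29, mitochondrial beta-oxidation 0.24, peroxisomal beta-oxidation 0.32 and ketone bodies 0.26, the last moving to 0.13 without replicate 2 of 10 weeks. Ehhadh, the bifunctional enzyme of peroxisomes, had 251, 223, 253 and 229 CPM at 10 weeks and 293, 308, 285 and 309 CPM at 12 weeks. The groups did not overlap, at 0.32 (SE 0.08, adjusted p = 0.088). Slc27a2, which activates and imports long fatty acids, had 1086, 742, 976 and 1224 and then 1420.4, 1510.5, 1339 and 1411 CPM, at 0.50 (SE 0.13, adjusted p = 0.12). Hadh of the mitochondrial spiral was at 0.30, the medium-chain dehydrogenase Acadm at 0.33 and the peroxisomal thiolase Acaa1b at 0.79. Cpt1a, the gate of mitochondrial import, was at 0.40 (SE 0.11, adjusted p = 0.149) and its ages overlapped. The single negative member was Etfb, an electron carrier, with 2.83, 3.32, 3.6 and 3.6 and then 1.62, 2.03, 2.05 and 1.6 CPM. It shares 43.5% of its exon bases with the annotated gene Etfbl, and pairs on shared bases add to neither.

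Targets of PPAR alpha, the nuclear receptor that fatty acids activate, included fold changes larger than those of the oxidation genes. The acyl-CoA thioesterase Acot3 had 0.202, 1.21, 0.081 and 0.462 CPM at 10 weeks and 3.17, 2.07, 3.03 and 6.06 CPM at 12 weeks, without overlap, at 2.80 (SE 0.63, adjusted p = 0.0759). Its neighbours Acot1, Acot2 and Acot4 were also without overlap, at 1.10 (adjusted p = 0.0784), 1.28 (adjusted p = 0.0854) and 0.93 (adjusted p = 0.104). These are near-identical paralogs, so their counts are uncertain. Mogat1, an enzyme of triglyceride synthesis, was below 1 CPM in all 8 libraries, at 1.97 (SE 0.55, adjusted p = 0.135). Cidec, a lipid droplet protein, was at 1.89 (SE 0.59, adjusted p = 0.176), and replicate 1 of 12 weeks alone had 10.1 CPM against 0.95 to 3.03 in the other 3. Without that library the log2 fold change of Cidec was 0.82. Cyp4a31 went the other way, at −1.40 (SE 0.44, adjusted p = 0.174). Of the 26 targets tested 22 were positive, with a median of 0.34, and of 0.16 without replicate 1 of 12 weeks.

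In lipid storage and synthesis, most genes were within the spread of the libraries. Pnpla2, the lipase that opens triglyceride breakdown, had 63.8, 89.8, 73.4 and 71.1 CPM at 10 weeks and 90.8, 104, 142 and 124 CPM at 12 weeks. All libraries of 12 weeks were above those of 10 weeks, at 0.63 (SE 0.14, adjusted p = 0.0759). Fads2, a desaturase, was at 0.43 (adjusted p = 0.14), Dgat2, which completes triglycerides, at 0.35 (adjusted p = 0.155), and the regulator Pparg at 1.10 (adjusted p = 0.145). The list had a median of 0.21 over 31 genes. With 1 library left out it ran from 0.12 without replicate 1 of 10 weeks to 0.43 without replicate 2 of 10 weeks. Genes of cholesterol synthesis and uptake had a median of 0.03, with 14 positive and 13 negative, and its sign turned within a range from −0.13 without replicate 4 of 10 weeks to 0.17 without replicate 1 of 10 weeks. Mylip, which marks the LDL receptor for breakdown, was at −0.92 (SE 0.24, adjusted p = 0.12).

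Bile acid genes had a median of 0.17, and 8 of 29 were higher at an unadjusted p under 0.05, against 6.45% of all genes. The median was 0.09 without replicate 2 of 10 weeks and 0.11 without replicate 3 of 12 weeks. Nr1h4, the bile acid receptor FXR, was at 0.49 (adjusted p = 0.147), Klb, the coreceptor of FGF15, at 0.45 (adjusted p = 0.195) and Cyp8b1, the enzyme of cholic acid synthesis, at 0.83 (adjusted p = 0.233). Beside Gys2, the list of glucose production and glycogen held the glucose transporter Slc2a2 at 0.51 (adjusted p = 0.173), without overlap. Pck1, the first committed enzyme of glucose production, was at 0.13 (adjusted p = 0.782). The median of these 30 genes was 0.09, so the rise of Gys2 was not shared by the list.

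Enzymes that modify drugs and other foreign compounds were higher at 12 weeks in most families. All 13 carboxylesterases tested were positive, 5 at an unadjusted p under 0.05, against 6.45% of all genes, with a median of 0.35. Ces1e had 94.9, 75.8, 127 and 123 CPM at 10 weeks and 181, 233, 135 and 183 CPM at 12 weeks, and Ces1d had 433, 444, 381 and 330.3 and then 587, 679, 580.2 and 634 CPM. Neither overlapped, at 0.80 (adjusted p = 0.12) and 0.64 (adjusted p = 0.148). Of the conjugating enzymes and flavin monooxygenases, 48 of 54 were positive and 12 were higher at an unadjusted p under 0.05, with a median of 0.23. Gstt2, a glutathione transferase, was at 0.47 (adjusted p = 0.156). Ugt1a1, which conjugates bilirubin, was at 0.33 (adjusted p = 0.14) but shares 88.4% of its exon bases with the other genes of the Ugt1a locus.

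Families 1 to 3 of cytochrome P450 had a median of 0.10 over 43 genes. Beside Cyp2a5, which passed, 8 members in all including it were higher at an unadjusted p under 0.05, and 1 was lower. Of all genes, 6.45% were higher and 7.82% lower at such a p. Cyp2e1, the ethanol-inducible enzyme of the pericentral zone, had 6926, 5452, 7244 and 8101 CPM at 10 weeks and 8763, 8888, 10273 and 8793 CPM at 12 weeks. The ages were separate, at 0.41 (SE 0.12, adjusted p = 0.154). Cyp2c37 was at 0.64 (adjusted p = 0.163) and Cyp2g1 at 1.30 (adjusted p = 0.163). Of the male-biased genes, Susd4 was at 0.53 (adjusted p = 0.156) and Oat, ornithine aminotransferase, at 0.49 (adjusted p = 0.1), while the urinary protein Mup11 was at −1.32 (adjusted p = 0.241). Moxd1 was at −4.05 (adjusted p = 0.234), where replicate 1 of 10 weeks had 36.9 CPM against 0.364 to 1.048 in the other 3.

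Respiratory chain genes were higher by little. The 76 nuclear genes had a median of 0.11, with 21 higher and 5 lower at an unadjusted p under 0.05, against 6.45% and 7.82% of all genes. That median ran from 0.047 without replicate 3 of 12 weeks to 0.16 without replicate 3 of 10 weeks. Uqcrc2, a core subunit of complex III, had 178, 149.8, 161 and 177 CPM at 10 weeks and 205, 222, 223 and 239.8 CPM at 12 weeks, without overlap, at 0.42 (SE 0.09, adjusted p = 0.0749). Its companion Uqcrc1 was at 0.33 (adjusted p = 0.136), and the small subunit Atp5me of ATP synthase was at −0.56 (adjusted p = 0.12). The 10 genes of the mitochondrial genome that were tested had a median of 0.09, and 0 of them had an unadjusted p under 0.05. It ran from 0.024 without replicate 2 of 12 weeks to 0.13 without replicate 1 of 12 weeks. The 75 cytosolic ribosomal protein genes had a median of 0.06 and went both ways, with 49 positive and 26 negative. At an unadjusted p under 0.05, 8 were higher and 12 lower, among the latter Rps29 at −0.79 (adjusted p = 0.0721). Their median ran from 0.022 without replicate 3 of 12 weeks to 0.13 without replicate 3 of 10 weeks. On library sizes without factors the medians of both the respiratory chain and the ribosomal proteins were 0.02 and −0.02, so the direction of the second turned.

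**Figure D3:**
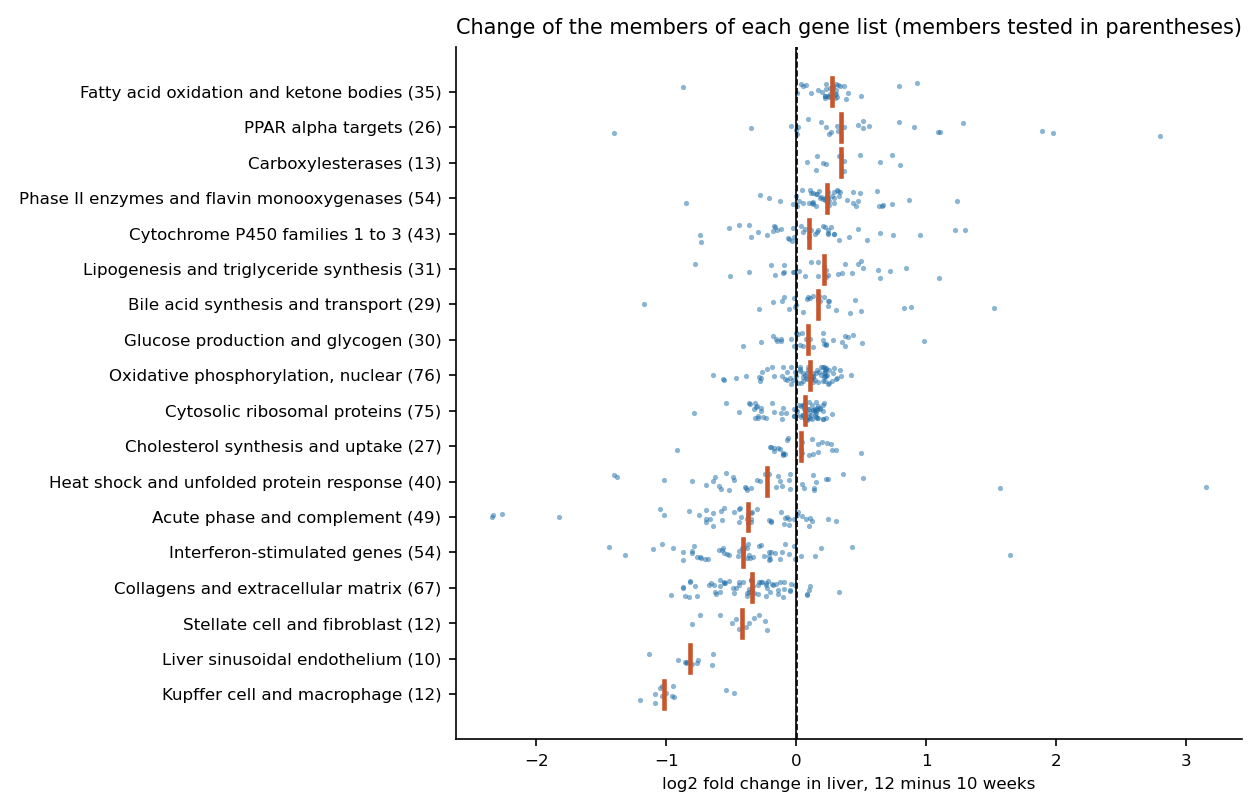
Log2 fold change in liver at 12 minus 10 weeks of each tested member of 18 gene lists. Points are genes and the vertical bars are the medians of the lists. The dashed line is the median of all 14533 genes, 0.01, next to the solid line at 0. Medians run from −1.02 for Kupffer cell markers to 0.35 for carboxylesterases.

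Genes of the unfolded protein response were lower at 12 weeks. This response raises chaperones and export of misfolded proteins when the endoplasmic reticulum is overloaded, through the factors ATF6, XBP1 and ATF4. ATF6 acts through the endoplasmic reticulum stress element, and the first 250 bases before the start of 4 members of the list that carry it are printed from RefSeq, on the strand of the gene, with the element in capitals. Their positions on GRCm38.p6 are chr15:88819396-88819645 on the plus strand for Creld2, chr10:86705445-86705694 on the minus strand for Hsp90b1, chr12:17266339-17266588 on the plus strand for Pdia6 and chr14:118937682-118937931 on the plus strand for Dnajc3.
Creld2: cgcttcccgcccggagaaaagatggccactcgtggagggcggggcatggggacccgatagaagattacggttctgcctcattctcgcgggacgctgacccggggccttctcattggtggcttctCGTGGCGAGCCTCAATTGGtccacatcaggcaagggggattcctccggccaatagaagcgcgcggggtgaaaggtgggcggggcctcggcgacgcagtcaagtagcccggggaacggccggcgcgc
Hsp90b1: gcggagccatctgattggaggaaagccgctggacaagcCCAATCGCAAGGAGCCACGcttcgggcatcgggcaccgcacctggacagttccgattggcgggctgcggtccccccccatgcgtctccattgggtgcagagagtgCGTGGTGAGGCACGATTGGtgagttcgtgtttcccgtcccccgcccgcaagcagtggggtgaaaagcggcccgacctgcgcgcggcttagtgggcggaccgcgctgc
Pdia6: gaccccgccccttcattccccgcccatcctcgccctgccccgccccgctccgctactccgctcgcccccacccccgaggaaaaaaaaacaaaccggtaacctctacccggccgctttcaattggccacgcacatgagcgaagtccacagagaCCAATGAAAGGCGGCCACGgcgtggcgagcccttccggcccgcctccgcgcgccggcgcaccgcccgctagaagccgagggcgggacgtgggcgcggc
Dnajc3: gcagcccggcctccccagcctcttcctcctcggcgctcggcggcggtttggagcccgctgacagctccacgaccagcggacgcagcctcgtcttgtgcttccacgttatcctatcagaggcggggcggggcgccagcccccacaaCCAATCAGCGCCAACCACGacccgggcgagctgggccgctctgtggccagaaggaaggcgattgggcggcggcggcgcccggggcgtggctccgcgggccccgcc
The letters searched were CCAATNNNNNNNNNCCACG, on both strands. Hsp90b1 has it once on each strand, and Creld2 on the reverse strand. Of 27025 genes with such a sequence 35 carry it, or 0.130%, and of 10438 tested genes with one 21 carry it, or 0.201%. In the list it was found in 8 of 23 genes, namely Hspa5, Hsp90b1, Pdia6, Calr, Canx, Dnajc3, Creld2 and Syvn1. All 8 had a negative log2 fold change, 7 of them at an unadjusted p under 0.05, against 7.82% of all genes, with a median of −0.59. Among the 15 without it, 11 were negative and 5 had such a p, with a median of −0.16. The list was chosen with earlier results of these data known, so its share and this split are no test of the element. A match of letters is a description and shows no binding.

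Over the 25 genes of the response, 21 were negative, 14 at an unadjusted p under 0.05, against 7.82% of all genes, with a median of −0.48. With 1 library left out the median ran from −0.63 without replicate 2 of 10 weeks to −0.28 without replicate 1 of 10 weeks. None passed in edgeR or in limma-voom, and 6 passed as lower in DESeq2, against 2.07% of all genes. Creld2, a chaperone-like protein, had 70.2, 25.9, 68.5 and 60.0 CPM at 10 weeks and 23, 18, 15.9 and 27.8 CPM at 12 weeks. Replicates 1, 3 and 4 of 10 weeks were high, and replicate 2 lay within the range of 12 weeks. Its log2 fold change was −1.40 (SE 0.31, adjusted p = 0.0744), and −1.64 (adjusted p = 0.0302) without that library. Sdf2l1, a cofactor of the chaperone BiP, had 80.8, 21.2, 46.5 and 38.9 and then 21.6, 17.2, 16.1 and 17 CPM, at −1.38 (SE 0.32, adjusted p = 0.0792), and at −1.62 (adjusted p = 0.0342) without it. Again replicate 2 of 10 weeks was the lowest of its age.

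Hyou1, a large chaperone of the reticulum, had 350.1, 141, 342 and 301 and then 143, 127, 108 and 182 CPM. Its log2 fold change was −1.02 (SE 0.27, adjusted p = 0.12), and −1.24 (adjusted p = 0.0416) without replicate 2 of 10 weeks. These 3 are the members that passed without that library. Hsp90b1, the chaperone GRP94, was at −0.70 (adjusted p = 0.121), and Dnajc3 at −0.49 (adjusted p = 0.129), both without overlap. Pdia6, a disulfide isomerase, was at −0.60 (adjusted p = 0.141) and Hspa5, which encodes BiP, at −0.62 (adjusted p = 0.198), and Hspa5 shares 44.2% of its exon bases with Rabepk. The 15 heat shock genes of the same list had a median of 0.04, with 8 positive and 7 negative, and the sign of this median turned within a range from −0.27 without replicate 1 of 12 weeks to 0.11 without replicate 2 of 12 weeks.

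Bmal1 and Clock split the libraries of 10 weeks in the same way. The core clock is a loop in which Bmal1 and Clock switch on their own repressors, and levels swing over the day. Of the 22 genes of the clock list tested, 15 were positive and 7 negative, with a median of 0.08. At an unadjusted p under 0.05, 4 were higher and 3 lower, against 6.45% and 7.82% of all genes. With 1 library left out the median ran from 0.04 to 0.22, the latter without replicate 2 of 10 weeks. Bmal1 had 6.95, 1.3, 7.41 and 4.38 CPM at 10 weeks and 1.55, 1.37, 1.28 and 1.45 CPM at 12 weeks. Replicates 1, 3 and 4 of 10 weeks were high, and replicate 2 was as low as those of 12 weeks. The log2 fold change was −1.82 (SE 0.41, adjusted p = 0.0775), and without replicate 2 of 10 weeks −2.14 (adjusted p = 0.00488). Clock itself had 56.2, 34.6, 59.6 and 65.6 and then 43.4, 39.7, 30.9 and 45.1 CPM, at −0.44 (SE 0.17, adjusted p = 0.262).

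Wee1 mirrored Bmal1, with 9.77, 18.6, 8.7 and 10.0 CPM at 10 weeks and 27.5, 26.6, 22.5 and 24.1 CPM at 12 weeks. The ages did not overlap, and replicate 2 was the highest at 10 weeks. Its log2 fold change was 1.09 (SE 0.19, adjusted p = 0.0573), and 1.40 (adjusted p = 0.000133) without that library. The output genes Tef, Dbp and Usp2 were at 0.34 (adjusted p = 0.157), 0.70 (adjusted p = 0.308) and 0.84 (adjusted p = 0.157). Per1 and Per2, repressors of the loop, were at 0.09 (SE 0.18) and 0.04 (SE 0.15), and the sign of each turned in 1 or more alternatives. The letters CACGTG, the E-box that Bmal1 and Clock can bind, were in the 250 bases before the start of 6 of 21 genes of the clock list. These list members were Cry1, Per1, Ciart, Bhlhe41, Tef and Tspan4, not all of which are parts of the loop. The letters were in 6.86% of all genes and in 9.64% of the tested genes. This list too was chosen with earlier results of these data known, so its share is a description only. The hour at which each animal was sampled is not given in the sources used here, and its part in these values was not tested.

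**Figure D4:**
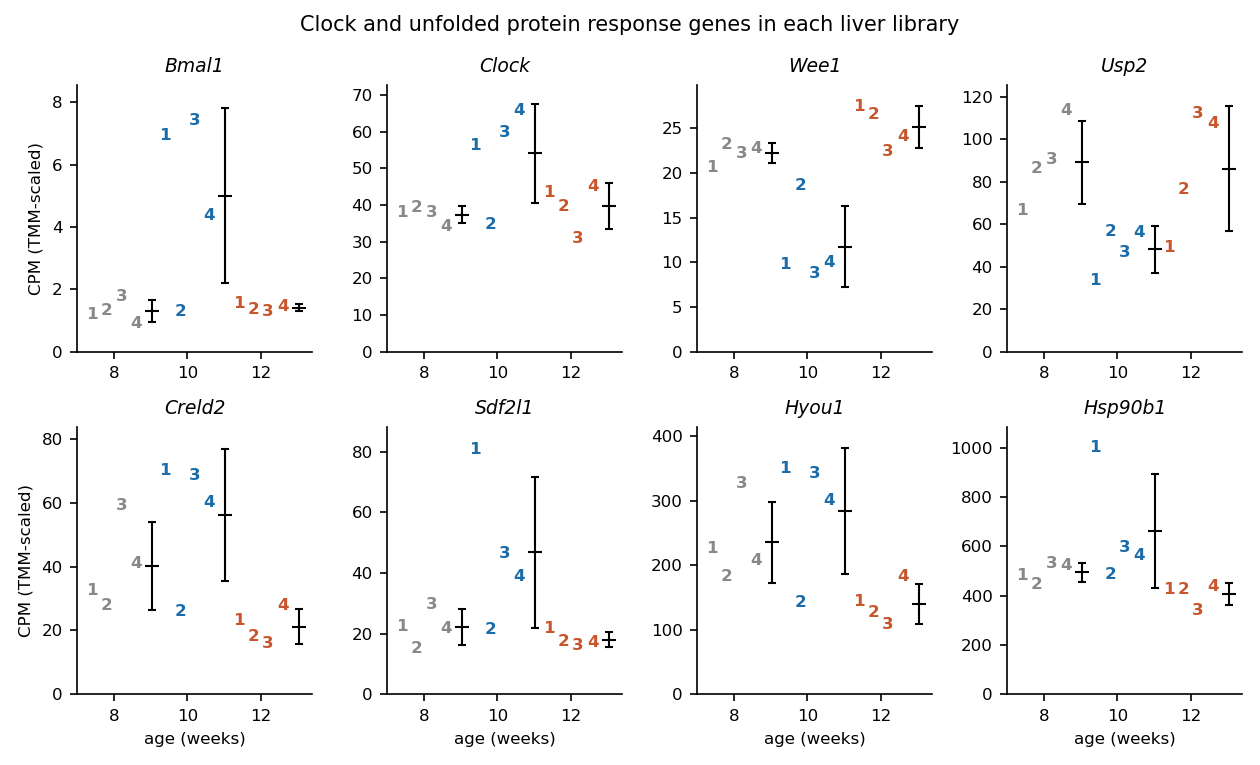
Level of 4 clock genes (upper row) and 4 genes of the unfolded protein response (lower row) in each liver library, in CPM scaled by TMM factors, by age in weeks. Digits are the replicate numbers within an age and the bars are means with SD of 4 libraries. Replicate 2 of 10 weeks lies apart from the other 3 in Bmal1, Clock, Wee1, Creld2 and Hyou1.

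Acute phase and interferon genes had negative medians that moved toward 0 without replicate 2 of 10 weeks. The 49 genes of the acute phase and complement had a median of −0.37, and 0.03 without that library. Saa1, the major acute phase protein, had 162, 4076, 214 and 476 CPM at 10 weeks and 1251, 31.3, 51.4 and 52.9 CPM at 12 weeks. A single library of each age was far above the rest, and the log2 fold change was −1.83 (SE 1.25), or 0.29 without replicate 2 of 10 weeks. The 54 interferon-stimulated genes had a median of −0.41, and −0.10 without it and −0.62 without replicate 2 of 12 weeks. Of these genes 12 were lower at an unadjusted p under 0.05, against 7.82% of all genes. Stat2, a factor of the interferon response, was separate between the ages at −0.41 (adjusted p = 0.12). Dusp1, a phosphatase induced within minutes of a stimulus, had 133, 85.1, 125 and 124 and then 57, 82.2, 40.0 and 62.8 CPM, at −0.95 (SE 0.23, adjusted p = 0.1). The 39 immediate early and growth arrest genes tested went both ways, with 22 positive and 17 negative. Their median was 0.05, and its sign turned, to −0.59, without replicate 1 of 12 weeks.

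The question of whether these changes belong to the liver was put to a single edgeR model of all 36 libraries, as the difference between the change in liver and the change from 10 to 12 weeks in heart or kidney. Against heart, the change in liver was more negative in 174 of 12556 genes (1.39%) and more positive in 103 (0.82%). Against kidney it was more negative in 135 of 13536 (0.997%) and more positive in 41 (0.303%). The model shares 1 spread over the tissues, while the coefficient of variation of a typical gene was 0.205 in liver, 0.118 in heart and 0.113 in kidney. With a weight for each tissue in limma-voom, chosen after the data were seen, the counts were 25 and 9 against heart and 48 and 18 against kidney. The labels do not say which libraries of different tissues came from 1 animal, so they entered as separate samples. Each gene is given with the adjusted p of both models. The hepatocyte markers tested had a median log2 fold change of −2.94 in heart, and none of these markers is compared with heart here. Other genes are, Fdx1 among them, and the part of this shift in their differences was not tested.

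Of the sinusoidal markers, Pecam1 and Kdr differed between the tissues in both models, 2 of 7 tested against heart and 2 of 8 against kidney. For Pecam1 the difference was −1.05 (SE 0.15, adjusted p = 0.000404, and 0.00562 with a weight per tissue) against heart and −0.81 (SE 0.16, adjusted p = 0.00891, and 0.027 with a weight per tissue) against kidney. The change of Pecam1 itself was 0.19 in heart and −0.05 in kidney. For Kdr the difference was −1.18 (SE 0.26, adjusted p = 0.0174, and 0.0397 with a weight per tissue) against heart and −1.26 (SE 0.26, adjusted p = 0.0126, and 0.0171 with a weight per tissue) against kidney. Tek differed by −1.17 and −0.9998 and Flt4 by −1.17 and −1.13 against heart and kidney, and both passed in both models. The changes of these 4 genes in heart and kidney lay between −0.07 and 0.19. The other sinusoidal markers did not pass, among them Stab1 and Stab2.

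Of 7 macrophage markers tested in kidney, 5 differed from liver in the edgeR model and 4 with weights. The difference was −1.26 (SE 0.22, adjusted p = 0.00678, and 0.0049 with a weight per tissue) for Csf1r and −1.03 (SE 0.22, adjusted p = 0.0134, and 0.0228 with a weight per tissue) for C1qa. C1qb and C1qc passed as well, and Adgre1 was at −1.57 (SE 0.36, adjusted p = 0.0216, and 0.0669 with a weight per tissue). In heart, where the 9 macrophage markers tested had a median of −0.35, 0 of them differed from liver at an adjusted p under 0.05 in either model. The lowest was 0.0595, for Csf1r. Of the genes that passed in liver, Fdx1 differed by 0.66 (SE 0.12, adjusted p = 0.00365, and 0.0233 with a weight per tissue) from heart and 0.70 (SE 0.12, adjusted p = 0.00678, and 0.0049 with a weight per tissue) from kidney. Gys2 was not tested in heart, and its difference from kidney was 0.78 (SE 0.16, adjusted p = 0.0126, and 0.0163 with a weight per tissue). Hip1 differed from heart in both models, and from kidney at an adjusted p of 0.0255, or 0.183 with weights. Rasgrp3 and Niban1 passed against both tissues in the edgeR model, and neither passed with weights. Peg3 passed against kidney in the edgeR model (adjusted p = 0.0419, and 0.346 with weights) but not against heart (0.0787, and 0.476 with weights). Cyp2a5 was at 0.73 in kidney, and its difference from kidney did not pass (0.569, and 0.703 with weights). Gm44442 was at −1.32 in heart and −1.89 in kidney, and its difference from either did not pass (0.638 and 0.984, and 0.784 and 0.976 with weights). Bmal1 was also lower at 12 weeks in heart, at −1.08 (SE 0.47), and in kidney, at −1.35 (SE 0.49), and the difference of liver from either did not pass the test.

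**Figure D5:**
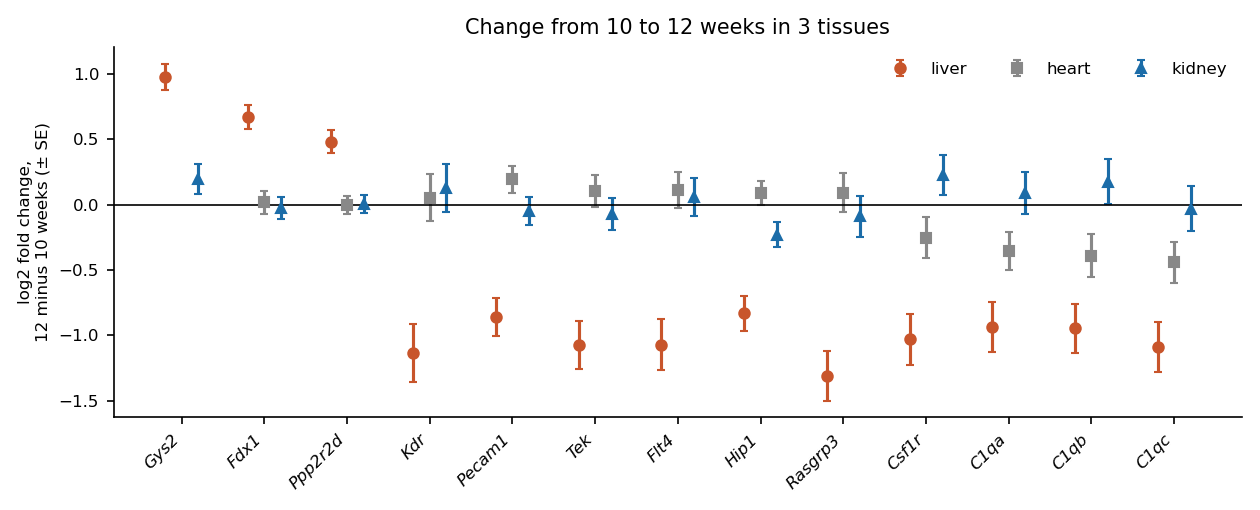
Log2 fold change at 12 minus 10 weeks in liver, heart and kidney for 13 genes, with SE. Liver values come from the fit of the 12 liver libraries and the others from the model of all 36. In the endothelial genes Kdr, Pecam1, Tek and Flt4 liver lies near −1 and both other tissues near 0, and Gys2 was not tested in heart.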

How the data were processed

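The processed files are gene tables for 36 libraries, 4 each of heart, kidney and liver at 8, 10 and 12 weeks. The authors trimmed the reads with cutadapt 4.2 and aligned them to GRCm39 with Ensembl release 113 by STAR 2.7.11b, and deposited its counts of read pairs per gene. The column without strand was used, as the first-strand share was near 50% in the libraries, so pairs over overlapping or antisense genes belong to neither gene. Symbols and positions came from GENCODE vM39, which matched 78168 of 78239 identifiers. Promoter sequences came from RefSeq on GRCm38.p6, matched by symbol.

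Genes with a mean count of at least 10 at 10 or 12 weeks were fitted with edgeR 4.0.16 (R 4.3.3, quasi-likelihood, TMM factors) on the 12 liver libraries, with 1 mean per age and the contrast of 12 minus 10 weeks. Passing means a Benjamini-Hochberg adjusted p under 0.05 over 14533 genes. The difference between tissues came from 1 model of all 36 libraries with 9 group means. DESeq2 1.42.0 and limma 3.58.1 were alternatives. An adjusted p that DESeq2 left missing was kept as missing. Named were, in each direction, up to 20 genes with a given symbol, those called first, then those passing, then those with the lowest p, and called genes without one. In each list, passing members, up to 6 of the lowest p and up to 4 core members could be named. A few genes are not reported here. The members and lists were chosen with earlier results of these data known. The procedure was tested on simulated data. The labels give no batch. Count totals per library, 21031599 to 33637390 in liver, limit the precision of low genes, and p-values cover the spread between samples.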

Additional observations from a re-analysis of the deposited data

Results flagged for a closer look

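In 11 of 152 groups of 4 libraries checked for named genes and summed lists, the gap from the highest or lowest library to its nearest neighbour took up more of the range of the group than the 95% critical value of Dixon allows. Chance gives such a gap in about 1 in 20 groups. Replicate 2 of 10 weeks held 7 of these. It was the highest of its age for Wee1 at 18.6 CPM, Alpl at 14.1, Gpr182 at 37.4 and Cfp at 17.9. The acute phase and complement genes summed to 98536 CPM in it and the adipocyte markers to 64.6. Its bile acid genes summed to 9472 CPM, the lowest of its age. At 12 weeks, Gpihbp1 was highest in replicate 4 at 10.5 CPM and Btnl9 lowest in replicate 3 at 2.05. The pericentral genes summed to 16264 CPM in replicate 3 of 12 weeks and the male-biased genes to 30455 in replicate 1.

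The change from 10 to 12 weeks in liver differed from that in heart, at an adjusted p under 0.05 in the edgeR model of all 36 libraries and with a weight per tissue, for Fdx1 by 0.66, Ppp2r2d by 0.49, Hip1 by −0.92, Pecam1 by −1.05, Tek by −1.17 and Flt4 by −1.17 on the log2 scale. It differed from that in kidney for Gys2 by 0.78, Fdx1 by 0.70, Ppp2r2d by 0.48 and Dclre1a by 0.65, which were more positive in liver. More negative in liver than in kidney were Pecam1 by −0.81, Tek by −0.9998, C1qc by −1.05, Flt4 by −1.13, Cfp by −1.20, Pik3cd by −1.37 and Gpihbp1 by −1.44. These are only the genes named by their call or lowest p in each direction. Members named from lists that also passed in both models, such as Kdr and Csf1r, are left out here.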

How the results depend on the processing

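Gys2 kept its direction and its call in all 19 alternatives, with adjusted p of at most 0.0308, and the other 7 genes kept their direction in all 19. DESeq2 passed 186 genes as higher and 301 as lower, and 26 and 81 with an absolute log2 fold change over 1. With no filter on low counts these were 66 and 205, and 23 and 80, of 34374 genes tested. With only the libraries of 10 and 12 weeks they were 5 and 28, and 2 and 18, and the calls of Niban1, Peg3 and Hip1 were lost. Without factors they were 5 and 23, and 3 and 11. DESeq2's size factors in edgeR passed 3 and 3, without Niban1 and Hip1. Counts of the first strand passed 3 and 3, with 2 called as higher, and lost Fdx1 (adjusted p = 0.0502), Rasgrp3, Peg3, Hip1 and Gm44442. limma-voom passed 4 and 7, with 2 and 2 past the fold. Leaving out 1 library gave 1 to 7 genes as higher and 0 to 9 as lower, and 0 to 3 and 0 to 7 past the fold, the highest without replicate 2 of 10 weeks and the lowest without replicate 1 of 10 or replicate 2 of 12 weeks. Without factors, 184 and 1036 genes had ages without overlap. The cause was not tested.

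The replicate numbers did not pair the samples, with correlations of −0.269 to 0.177 between samples of 1 number and not every sample closest to its own number, and a fit with the replicate block passed 3 and 1, with 1 past the fold in each direction. Against heart, limma-voom gave 59 genes as more positive and 94 as more negative, the weights 9 and 25, and leaving out 1 library 23 to 220 and 57 to 290. Against kidney these were 30 and 86, 18 and 48, and 35 to 86 and 76 to 215. Signs turned in 3 genes when 1 library was left out, with ranges of −0.0563 to 0.2643 for Per1, −0.1146 to 0.1697 for Per2 and −4.77 to 0.29 for Saa1. Without factors Per2 was at −0.0358, and on first-strand counts Serpina1c was at 0.10. A spread between libraries was computed for part of the lists only. Of these, the medians that moved by more than it ran from 0.12 to 0.43 for lipogenesis, 0.0891 to 0.20 for bile acids, −0.52 to −0.13 for heat shock and unfolded protein response, 0.0428 to 0.22 for the core clock and −0.48 to 0.0265 for acute phase and complement, when 1 library was left out. The cause was not tested.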

Other observations

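Other lists, beside a median of 0.01 for all genes, moved with single libraries, and each is given with its range when 1 library was left out. The 34 genes of the urea cycle and amino acid breakdown had a median log2 fold change of 0.12, from 0.076 without replicate 3 of 12 weeks to 0.20 without replicate 3 of 10 weeks. The 51 genes of plasma proteins and apolipoproteins had one of 0.06, from 0.023 without replicate 3 of 12 weeks to 0.087 without replicate 4 of 12 weeks. The 29 targets of NRF2, the factor that answers oxidants, had a median of 0.18, from 0.022 without replicate 1 of 12 weeks to 0.27 without replicate 4 of 12 weeks. Genes of cell proliferation had a median of 0.18 over 38, from 0.073 without replicate 4 of 12 weeks to 0.23 without replicate 3 of 10 weeks, and 3 were higher at an unadjusted p under 0.05, a share near the 6.45% of all genes.

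For several lists the sign of the median turned when 1 library was left out. The 33 male-biased liver genes had a median of −0.07, from −0.16 without replicate 2 of 10 weeks to 0.11 without replicate 1 of 10 weeks. The 32 female-biased genes had one of 0.05, from −0.041 without replicate 4 of 10 weeks to 0.56 without replicate 2 of 10 weeks. Thyroid hormone handling was at 0.07 over 11 genes, from −0.084 without replicate 2 of 10 weeks to 0.14 without replicate 4 of 10 weeks. Glucocorticoid-induced genes were at −0.02 over 26, from −0.18 without replicate 1 of 12 weeks to 0.075 without replicate 2 of 10 weeks. The 6 markers of neutrophils and monocytes tested had a median of −0.53, from −1.95 without replicate 1 of 12 weeks to 0.87 without replicate 2 of 10 weeks, and the 5 of B and plasma cells one of 0.08, from −0.12 without replicate 2 of 12 weeks to 0.53 without replicate 2 of 10 weeks. The 4 mesothelial markers, of the cells that cover the organ, had a median of 0.74, from 0.44 without replicate 2 of 10 weeks to 1.16 without replicate 1 of 10 weeks, without a turn of sign. Their sums were 0.996 to 4.2 CPM at 10 weeks and 0.93 to 6.97 CPM at 12 weeks.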
